A study of Mus musculus with 12 samples.

Results

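The comparison set tumour-specific CD8 T cells of mice given anti-CTLA-4 together with anti-PD-1 DANA (Combo, 3 libraries) against those of mice given anti-PD-1 DANA alone (3 libraries), 6 of the 12 libraries of the series. It asks what differed in the RNA of these cells when CTLA-4 blockade was added to PD-1 blockade. All 4 arms were C57BL/6 wild-type mice, at postnatal day 91 per the labels, injected with TRAMP-C2 cells, which come from a mouse prostate tumour and can be transplanted. By the sample labels mice received their antibody on days 3, 6 and 9, and by the series text on days 3, 6 and 8. Draining lymph nodes were taken on day 28, which the labels of the samples count after treatment and the series text after tumour injection. Live cells positive for CD45, CD3 and CD8 that bound a tetramer of the tumour antigen Spas-1, and not one of Spas-2, were sorted. DANA names a change in the antibody's Fc part that abolishes its binding to Fc receptors, and the control arm received an isotype antibody. The genes compared were the 17833 with a value in both of the authors' deposited tables against isotype, of 48709 listed.

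CTLA-4 and PD-1 are inhibitory receptors of activated T cells. CTLA-4 competes with the costimulatory receptor CD28 for the ligands CD80 and CD86, and PD-1 binds PD-L1 and PD-L2 and dampens signalling from the T cell receptor and CD28. Interferon-gamma, made by activated CD8 T cells, acts through its receptor. A T cell receptor is built from variable segments joined to constant regions, so the segments in the RNA of a pool reflect which clones it holds.

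Each arm was 1 pool of cells from 5 mice, made into 3 libraries. The libraries of an arm are therefore splits of 1 pool, p-values measure only the spread between such splits, and arm and pool cannot be told apart. In bulk RNA, fewer cells of a type and less RNA per cell cannot be told apart either. Library sizes recovered from the authors' deposited means were 24594651 to 42556869 reads for Combo and 24233466 to 31943900 for anti-PD-1 DANA. The CD8 markers were abundant in anti-PD-1 DANA, with means of 413 RPKM for Cd8b1 and 147 for Cd8a in the authors' deposited tables. The larger of the Combo and isotype means was 345 RPKM for Cd8b1 and 81.8 for Cd8a, so Combo was at most at these values. Cd4 was at 0.00530 RPKM in Combo and 0.00650 in anti-PD-1 DANA in the authors' deposited tables. B cell genes were present in both arms despite the gate, with Cd79a, a chain of the B cell receptor complex, at 29.2 RPKM in Combo and 26.3 in anti-PD-1 DANA in the authors' deposited tables.

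Each difference below is the log2 fold change of Combo against isotype minus that of anti-PD-1 DANA against isotype, from the authors' deposited tables, ± a standard error (SE). It is above 0 where Combo was higher. The SE comes from the authors' p-values, which assumes a Wald test and, for 57.4% of genes, equal variances of the group means. A gene was called at an adjusted p under 0.05 (two-sided Wald test, Benjamini-Hochberg over all listed genes). By this rule 80 of 17833 tested genes were called (0.449%), 35 higher in Combo (0.196%) and 45 lower (0.252%). At an unadjusted p under 0.05 there were 765 higher (4.29%) and 1197 lower (6.71%). The authors deposited no value per library, and whole reads per library could be recovered for only some genes with few reads, which is where library values are given.

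Most called genes had a wide error and a large difference. By the larger deposited mean, the range of 5 to 20 RPKM held the most calls, 21 higher and 22 lower, and none lay under 1 RPKM. Of the 80, 64 had an SE of 1 or more, and the smallest absolute difference among these was 4.87. Precision was limited to abundant genes: 1248 genes (6.998%) had an SE under 1, and of these 7 were called higher (0.561%) and 9 lower (0.721%). The median difference was 0.17 over all tested genes and 0.37 over the genes with an SE under 1, of which 857 (68.7%) lay above 0. These medians depend on the scale. Scaled by library size, each difference shifts by -0.71, which moves the median of the precise genes to -0.34 and the split of calls to 31 higher and 200 lower. Group means and library values in RPKM are on the scale of library size, so they can place Combo lower where a difference places it higher.

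**Figure D1:**
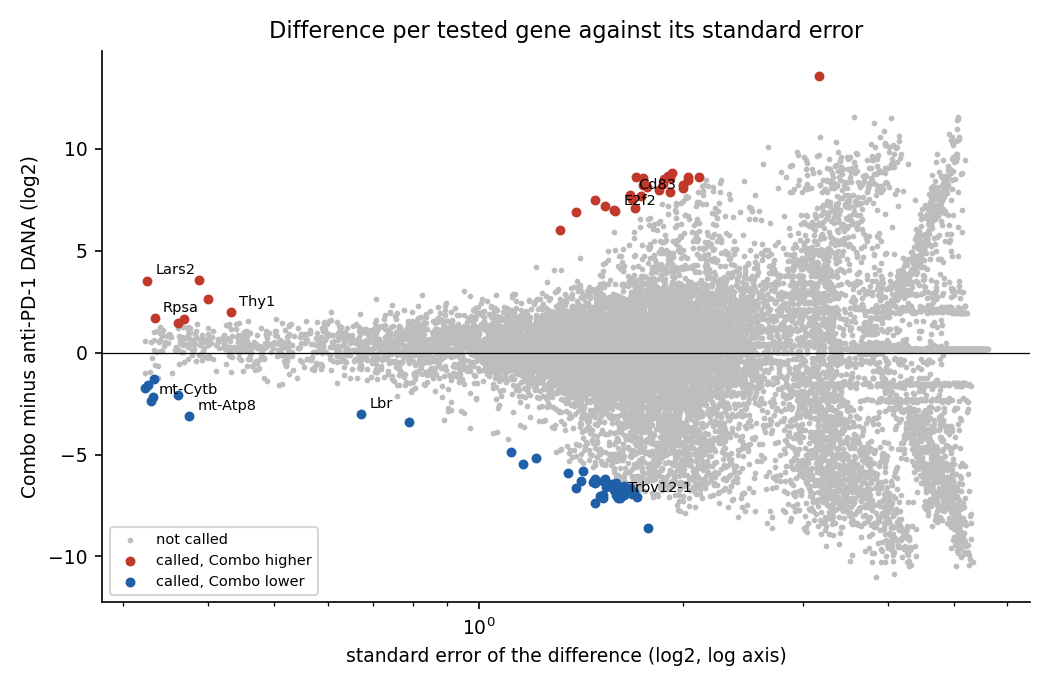
Difference between Combo and anti-PD-1 DANA (log2, vertical axis) against its standard error (log2, log horizontal axis) for the 17833 tested genes, 1 point a gene. The 35 genes called higher are red and the 45 called lower are blue. At an SE under 1 the called genes are few and lie within the range of Gm15564 and Lars2 (both 3.54) to Spcs2 (-3.40). The other 64 called genes differ by 4.87 or more.

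Among the lists, the difference most uniform in direction was in the mitochondrial genome, where every tested gene had an SE under 1. It encodes 13 proteins, all subunits of the respiratory chain or of ATP synthase. All 13 mitochondrially encoded genes were lower in Combo by their estimate, beside 31.3% of genes with an SE under 1, and 7 of the 13 were called lower (background 0.252%). The median of the 13 was -1.31, and 11 of 13 were called when differences were scaled by library size, which shifts every difference down.

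mt-Atp8, an ATP synthase subunit on the mitochondrial chromosome (MT) at 7766 to 7969, differed by -3.10 ± 0.38 (adjusted p = 2.22e-12). Its mean was 7385 RPKM in anti-PD-1 DANA and 4222 in isotype in the authors' deposited tables, and the Combo mean lay below that of isotype. mt-Cytb, cytochrome b of complex III (MT, 14145 to 15288), differed by -2.35 ± 0.33 (adjusted p = 1.09e-08). The called subunits of complex I, the NADH dehydrogenase, ran from mt-Nd5 at -2.19 ± 0.33 and mt-Nd4l at -2.10 ± 0.36 to mt-Nd4 at -1.59 ± 0.33 and mt-Nd1 at -1.31 ± 0.33. mt-Co1, the catalytic subunit of cytochrome c oxidase, differed by -1.75 ± 0.32 (adjusted p = 0.000374) from a mean of 23267 RPKM in anti-PD-1 DANA in the authors' deposited table. The estimates were of unequal size: mt-Nd3 stood at -0.13 ± 0.39 and mt-Nd6, the gene on the other strand, at -0.53 ± 0.36. Neither passed the test. mt-Atp6 (-1.24 ± 0.34, adjusted p = 0.0803), mt-Co2, mt-Nd2 and mt-Co3 lay between, from -1.24 to -0.95, and were not called. mt-Atp8 overlaps mt-Atp6, mt-Nd4l overlaps mt-Nd4, and mt-Nd5 overlaps mt-Nd6 on the other strand in the files' coordinates, so reads of each pair may be shared.

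Nuclear genes of the same complexes gave no call. Of 41 nuclear oxidative phosphorylation genes tested, 2 had an unadjusted p under 0.05 above 0 and 1 below 0 (backgrounds 4.29% and 6.71%). The median of the 41 was 0.34, beside 0.37 for all genes with an SE under 1. Atp5e, another ATP synthase subunit, stood at 1.58 ± 0.60 (adjusted p = 0.574) and Ndufa10, a subunit of complex I, at -2.00 ± 0.97.

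On the authors' scale, genes of ribosomal proteins, a sequence related to ribosomal RNA and Lars2 stood on the other side. Lars2, the mitochondrial leucyl-tRNA synthetase on chromosome 9 at 123366940 to 123462664, had the smallest p of all genes, with a difference of 3.54 ± 0.33 (adjusted p = 8.28e-23). Its mean was 3323 RPKM in Combo and 745 in isotype in the authors' deposited tables, with anti-PD-1 DANA lower still. The predicted locus Gm15564 differed by 3.54 ± 0.39 and Rn18s-rs5, a sequence related to 18S ribosomal RNA, by 2.62 ± 0.40, both called. These 2 lie outside the rule for named genes and were picked after their values were seen. Against isotype, Lars2 and Gm15564 had nearly the same values, 2.045 and 2.047 in Combo and -1.491 and -1.496 in anti-PD-1 DANA. Which transcripts the reads counted at these loci came from was not tested. On library size scaling Lars2 stood at 2.82 and stayed called.

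Of 86 tested genes for cytosolic ribosomal proteins, 3 were called higher (background 0.196%) and none lower on the authors' scale, while none was called on library size scaling. On the authors' scale 35 had an unadjusted p under 0.05 above 0 and none below, and 76 of the 80 with an SE under 1 (95.0%) were above 0, beside 68.7% of all such genes. The median of the list was 0.74 on the authors' scale, against 0.37 for all precise genes, and 0.03 on library size scaling, against -0.34. The excess over the median of all precise genes, these included, was therefore 0.37 on both scales, and the sign of the list's shift rests on the scaling. This excess is not matched for level. On the authors' scale tested genes had a median of 0.41 at 100 to 1000 RPKM and 0.55 above, by the larger deposited mean.

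The called members were Rpsa, the laminin receptor and a protein of the small subunit, at 1.70 ± 0.33 (adjusted p = 0.00203), Rplp2, an acidic protein of the large subunit's stalk, at 1.64 ± 0.37 (adjusted p = 0.0116) and Rpl37a, of the large subunit, at 1.46 ± 0.36 (adjusted p = 0.0341). Rpsa had a mean of 2281 RPKM in Combo and 1156 in anti-PD-1 DANA in the authors' deposited tables. Rpl37a had means of 993.7 and 590.3 RPKM in the same order in the authors' deposited tables, and Rplp2 of 599.4 and 315.9. On library size scaling the differences were 0.98, 0.92 and 0.75 for Rpsa, Rplp2 and Rpl37a, and the calls were lost. Genes of this family have many processed pseudogenes, so the counting of their reads is uncertain.

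The promoters of Rpsa and Rpl37a are shown because these genes are called members of their family on the authors' scale. The window of Rplp2, with 1 match, lies inside the gene as the files list it and is not printed. Each run is the 250 bases before the start of transcription given by RefSeq (GRCm38.p6, + strand, 5′ to 3′). Capitals mark CGGAAG or its reverse complement CTTCCG, the core letters bound by ETS factors. The Rpsa window is chr9:120127516-120127765 and that of Rpl37a is chr1:72711010-72711259.
Rpsa: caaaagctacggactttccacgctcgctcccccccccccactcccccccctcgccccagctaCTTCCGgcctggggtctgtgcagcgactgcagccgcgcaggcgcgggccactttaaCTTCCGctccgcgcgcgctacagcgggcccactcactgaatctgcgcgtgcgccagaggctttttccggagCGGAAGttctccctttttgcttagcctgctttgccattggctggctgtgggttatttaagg
Rpl37a: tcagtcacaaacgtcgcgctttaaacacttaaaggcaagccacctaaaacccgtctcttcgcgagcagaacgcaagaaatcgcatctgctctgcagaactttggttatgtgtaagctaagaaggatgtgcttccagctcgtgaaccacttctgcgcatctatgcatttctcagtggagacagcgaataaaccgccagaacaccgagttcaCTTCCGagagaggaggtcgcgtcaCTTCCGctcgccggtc
The letters occur 3 times before Rpsa and 2 times before Rpl37a. On either strand they were in 33 of 66 matched ribosomal protein promoters (50.0%), in 13.8% of all 27025 promoters of the same length, and in 29.0% of those of genes with an SE under 1. A match describes the letters only and is not a bound site.

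**Figure D2:**
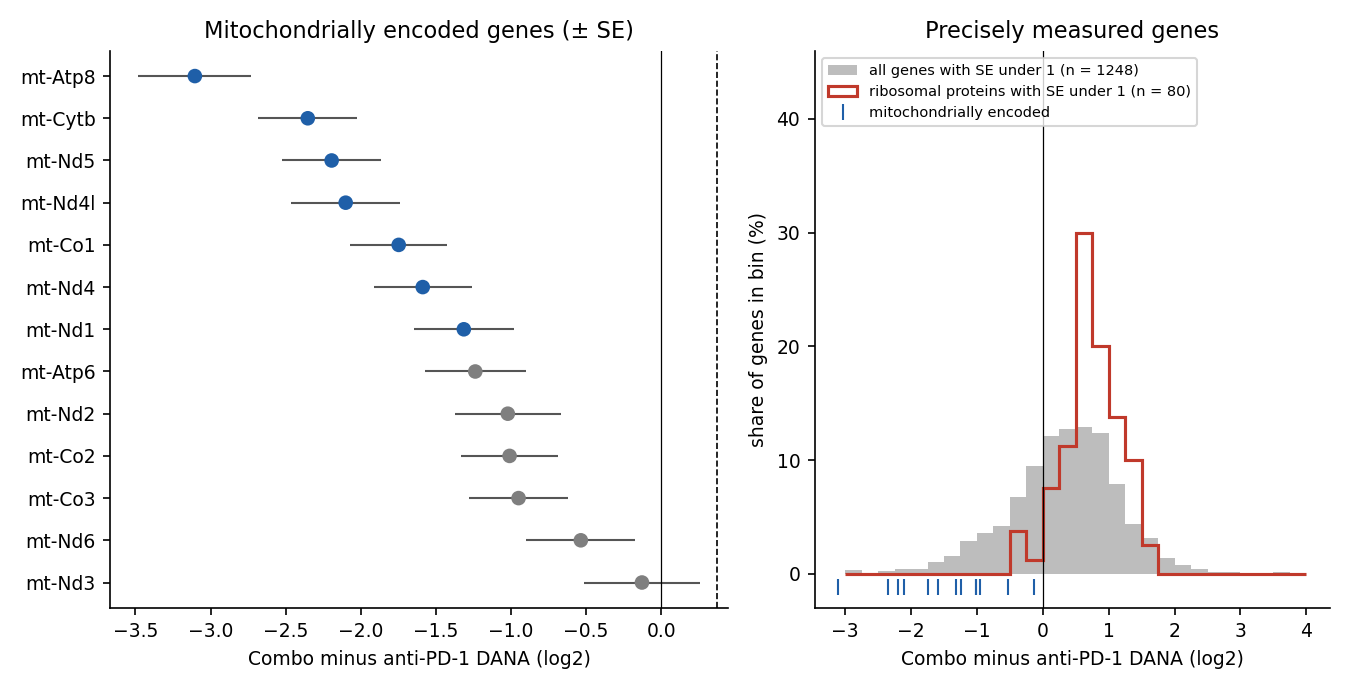
Left, the difference between Combo and anti-PD-1 DANA (log2, horizontal axis) ± SE for the 13 mitochondrially encoded genes, with called genes in blue, a solid line at 0 and a dashed line at the median of genes with an SE under 1 (0.37). Right, the share of genes per bin (%) for all 1248 genes with an SE under 1 (grey) and the 80 ribosomal protein genes among them (red), with ticks for the mitochondrial genes. All 13 ticks lie below 0 and 76 of the 80 ribosomal protein genes lie above 0 on the authors' scale.

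The receptors that the antibodies bind did not differ beyond their error. Pdcd1, which encodes PD-1, stood at 0.68 ± 1.47 and Ctla4 at -0.05 ± 2.10. Reads of Ctla4 in the 3 anti-PD-1 DANA libraries, ordered by library size, were 65, 3 and 393, so most came from 1 library. Among 25 inhibitory receptors and exhaustion factors none was called, 4 had an unadjusted p under 0.05 below 0 (16.0%, background 6.71%) and none above 0, and the median was -0.14. Tnfrsf9, the costimulatory receptor 4-1BB, had the smallest p at -6.36 ± 1.86 (adjusted p = 0.136), and Nr4a3, a nuclear receptor induced by antigen, the smallest above 0 at 1.82 ± 1.83. Tnfrsf4, the costimulatory receptor OX40, could be followed in all 6 libraries. It stood at 5.004, 0 and 0.0861 RPKM in Combo and at 9.98, 12.2 and 20.8 in anti-PD-1 DANA, as recovered from the authors' deposited means. The ranges do not overlap, but 1 Combo library held nearly all of that arm's reads, and the difference was -2.43 ± 3.04.

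The list of ligands and costimulators of the CD28 family gave no call among 10 tested genes. It also holds genes outside that family, Cd40, Cd40lg, Cd27, Tnfrsf18 and Cd226 among those tested. Cd86, a ligand shared by CD28 and CTLA-4, stood at 0.622, 0.0256 and 0.725 RPKM in Combo and at 7.38, 2.56 and 5.601 in anti-PD-1 DANA, as recovered from the authors' deposited means. All 3 Combo libraries were below all 3 anti-PD-1 DANA libraries, and the difference was -2.81 ± 1.91 (adjusted p = 1). Of 2068 genes whose read numbers were recovered for all 6 libraries, 0 included, 108 (5.22%) had no overlap with Combo lower and 27 (1.31%) with Combo higher. This background for such statements covers genes of every level and is not matched to the level of a named gene. Cd40, the receptor of CD40 ligand, was the only member with an unadjusted p under 0.05, at 6.41 ± 3.01 (adjusted p = 1). Cd40lg, its ligand on helper T cells, rested on 1 anti-PD-1 DANA library with 247, 0 and 0 reads, and its difference of -9.17 ± 5.30 did not pass the test.

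Interferon-gamma and its pathway held no called gene among 15. Ifng stood at 2.14 ± 1.86, and its receptor chains Ifngr1 at 0.83 ± 0.89 and Ifngr2 at -0.82 ± 1.87. The mean of Ifngr1 was 28.0 RPKM in Combo and 26.4 in anti-PD-1 DANA in the authors' deposited tables. Jak2, a kinase of the receptor, had the smallest p of the list at -3.52 ± 1.49 (adjusted p = 0.802).

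Interferon-stimulated genes gave no call among 56. There were 5 with an unadjusted p under 0.05 above 0 and 6 below (backgrounds 4.29% and 6.71% of genes), and the median was -0.35, beside 0.17 for all tested genes. Ifit3, an antiviral gene, stood at -6.21 ± 1.81 (adjusted p = 0.136) and Oas3, a sensor of double-stranded RNA, at 4.33 ± 1.53 (adjusted p = 0.407). Among GTPase genes of the interferon-gamma response with an SE under 1, Irgm1 and Ifi47 stood at -2.85 ± 0.94 and -2.11 ± 0.76. Tgtp2 stood at -1.02 ± 0.86, Tgtp1 at -0.91 ± 0.82, Igtp at -0.78 ± 0.82 and Gbp4 at 0.25 ± 0.78, and none of the 6 was called.

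Cell death genes gave no call among 36 and had a median of 0.23. At an unadjusted p under 0.05 there were 2 on each side (backgrounds 4.29% above 0 and 6.71% below). Fas, the death receptor, was at 4.84 RPKM in Combo and 4.94 in anti-PD-1 DANA in the authors' deposited tables. Its difference was 0.70 ± 1.83, and -0.013 on library size scaling, the scale of the means. Fasl, its ligand, had 235, 1 and 1 reads in the anti-PD-1 DANA libraries, so its difference of -7.33 ± 3.89 rests on 1 library. Bcl2, which restrains mitochondrial death, stood at 0.24 ± 0.48, and at -0.48 on library size scaling. Casp9, the initiator caspase of the mitochondrial route, had 56, 664 and 205 reads in the anti-PD-1 DANA libraries and a difference of -6.48 ± 1.90 (adjusted p = 0.137). Bmf, a BH3-only death gene, had the opposite sign at 11.50 ± 4.05 and rested on 1 Combo library with 1, 857 and 2 reads. Fadd, the adaptor of death receptors, stood at 0.156, 0.0320 and 0.00602 RPKM in Combo and at 3.58, 0.536 and 3.06 in anti-PD-1 DANA, as recovered from the authors' deposited means. Its 6 libraries do not overlap, and the difference was -4.59 ± 1.84 (adjusted p = 0.678). Tnfrsf4, Cd86 and Fadd are given in all 6 libraries because these do not overlap, a choice made after their values were seen.

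Effector and cytotoxic genes gave no call among 34 and had a median of 0.28. At an unadjusted p under 0.05, 2 were above 0 and 3 below (backgrounds 4.29% and 6.71%). Prf1, which encodes perforin, had a mean of 6.09 RPKM in Combo and 33.1 in anti-PD-1 DANA in the authors' deposited tables. The difference of Prf1 was -1.74 ± 1.33 and that of Gzmb, the protease granzyme B, -2.04 ± 2.28, from means of 1.32 and 8.60 RPKM in the authors' deposited tables. Tbx21, the transcription factor T-bet, had means of 7.90 and 10.03 RPKM in the authors' deposited tables. Its difference was 0.32 ± 1.53, and -0.39 on library size scaling, the scale of the means. By their estimates both arms lay above isotype for these 3 genes in the authors' deposited tables (log2 ± SE, Combo then anti-PD-1 DANA). The values were 5.34 ± 1.33 and 7.07 ± 1.33 for Prf1, 5.78 ± 2.28 and 7.82 ± 2.28 for Gzmb, and 6.97 ± 1.52 and 6.65 ± 1.52 for Tbx21. The authors' false discovery rate for Gzmb was 0.203 in Combo and 0.0449 in anti-PD-1 DANA, and it was at most 0.007 for Prf1 and Tbx21. Nkg7, a granule protein and the most abundant member, was at 599.1 RPKM in Combo and 643.7 in anti-PD-1 DANA in the authors' deposited tables. Gzma, the protease granzyme A, had the smallest p below 0 at -9.20 ± 4.11 (adjusted p = 0.958). Zeb2, a factor of terminal effector cells, had the smallest p above 0 at 4.89 ± 1.92 and rested on 1 Combo library with 9, 4 and 461 reads.

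The proliferation list held 1 called gene of 38 (background 0.196% called higher). E2f2, a transcription factor of the cell cycle on chromosome 4 at 136172394 to 136196057, differed by 6.96 ± 1.59 (adjusted p = 0.0135). In the authors' deposited tables its estimates against isotype (log2 ± SE) were -1.37 ± 1.57 in Combo and -8.33 ± 1.61 in anti-PD-1 DANA. The Combo value lay within its error of 0, and by these estimates E2f2 was scarcest in anti-PD-1 DANA. Other members lay on both sides: Ube2c, a mitotic ubiquitin enzyme, stood at 5.09 ± 2.14 and Rrm2, a subunit of ribonucleotide reductase, at -8.11 ± 3.45 with 460, 0 and 11 reads in the anti-PD-1 DANA libraries. The median was 0.04.

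Genes of T cell identity were measured closely and gave no call. Of 30 genes for T cell receptor chains, CD3, CD8 and their kinases and adaptors, 26 had an SE under 1, none had an unadjusted p under 0.05, and all lay between -1.29 and 1.68 with a median of -0.11 (-0.82 on library size scaling). Of the 26 the median was 0.53 below that of all genes with an SE under 1. Group means, on the scale of library size, had an order counted as known for 14 of the 30, and Combo was the lower in 13 (92.9%, background 62.5%). Orders settled only by a larger mean of unresolved origin, such as that of Cd8a, were not counted, in the list or in the background. Cd8a stood at -0.21 ± 0.43, and Cd3d, a chain of the CD3 complex, was at 464.4 RPKM in Combo and 486.5 in anti-PD-1 DANA in the authors' deposited tables. Thy1, the surface glycoprotein CD90, was outside that list and was called, at 1.99 ± 0.43 (adjusted p = 0.00802) from a mean of 256.5 RPKM in Combo in the authors' deposited table, but not on library size scaling (1.27). Of 25 naive, memory and recirculation genes none was called and 1 had an unadjusted p under 0.05, below 0 (4%, background 6.71%). It was Slamf6, a receptor of stem-like CD8 T cells, at -2.40 ± 0.91. Combo had the lower mean in all 9 of that list with a known order (background 62.5%), while its median was 0.23 on the authors' scale. Chemokine receptors and integrins gave 1 such gene of 19 (5.26%), Ccr9, the gut-homing receptor, at -2.73 ± 0.90, also not called.

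Glycolysis and nutrient uptake genes had a larger share of unadjusted p under 0.05 below 0, 5 of 21 (23.8%, background 6.71%), with 1 above 0, no call and a median of -0.46. Pfkl, a phosphofructokinase, had the smallest p at -4.79 ± 1.36 (adjusted p = 0.111), while Pfkm, another, stood at 6.36 ± 2.68. Slc7a5, the large amino acid transporter induced by activation, stood at 0.0110, 0.278 and 0.0190 RPKM in Combo and at 3.47, 3.67 and 3.01 in anti-PD-1 DANA, as recovered from the authors' deposited means. The 3 Combo libraries were each below all 3 anti-PD-1 DANA libraries, which lay close together, and the difference was -4.27 ± 1.97 (adjusted p = 1 over all listed genes). Slc7a5 was picked for its 6 libraries after they were seen. Immediate early and stress genes gave no call among 28. At an unadjusted p under 0.05, 1 was above 0 (background 4.29%), Jund at 2.72 ± 1.12. Below 0 there were 3 (10.7%, background 6.71%), led by Ier3 at -5.29 ± 2.17. The p53 and damage response genes gave no call among 19, with 2 below 0 at an unadjusted p under 0.05 (10.5%, background 6.71%). Plk2, a target of p53, stood at -4.54 ± 2.05 and Gadd45a, another, at 4.32 ± 3.26.

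Markers of other cells the gate could hold were not called in either direction. Of 23 B cell markers 4 had an unadjusted p under 0.05 below 0 (17.4%, background 6.71%) and none above 0, and the median was -0.09. Cd22 stood at -5.10 ± 1.68 and Fcmr, an IgM receptor, at 2.91 ± 1.49. Of 12 B cell markers with a known order of means, Combo was the lower in 6 and the higher in 6. Of 19 myeloid and dendritic markers 4 were below 0 (21.1%, background 6.71%) and 1 above 0 (background 4.29%) at that p. The median was -1.88. Lyz2, lysozyme of macrophages, stood at -3.64 ± 1.17 (adjusted p = 0.239), while Itgax, CD11c of dendritic cells, stood at 10.23 ± 3.78 on 1 Combo library with 292, 5 and 1 reads. Of 10 MHC class II genes 3 were above 0 (background 4.29%) and 2 below 0 (20%, background 6.71%) at that p. Ciita, the class II activator, stood at 6.69 ± 2.03 and H2-DMa at -4.66 ± 1.49. The CD4 and regulatory, natural killer and gamma-delta, stromal, and erythroid and platelet lists held 6, 8, 8 and 4 tested genes and medians of -0.81, -2.53, -0.56 and 1.73. The highest erythroid value was that of Hbb-bs, a globin, at 9.47 ± 5.19 with 174, 0 and 0 reads in the Combo libraries. The part of such cells in any difference was not tested.

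**Figure D3:**
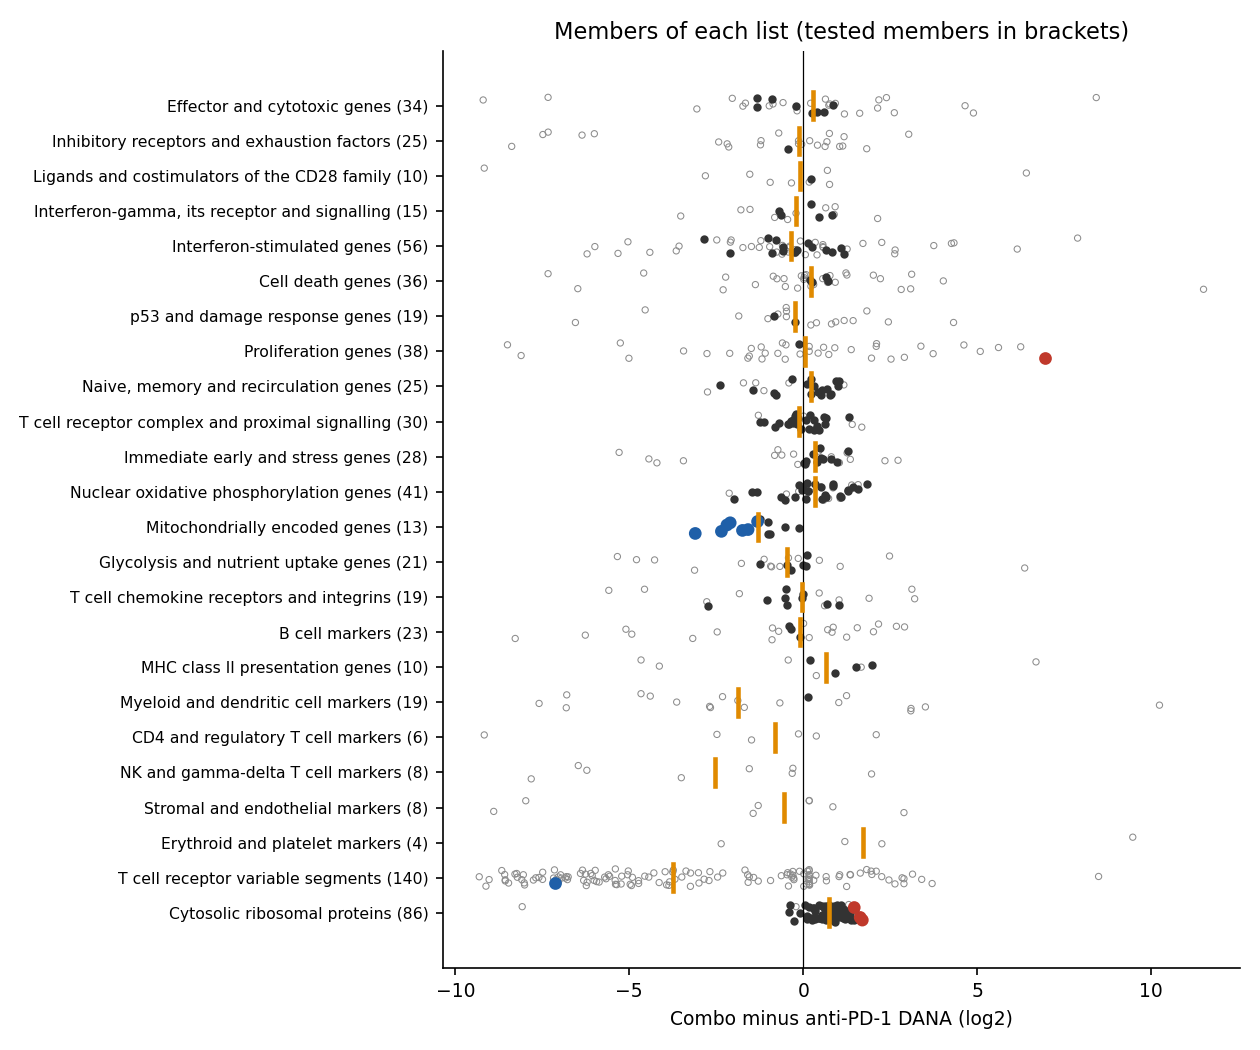
Difference between Combo and anti-PD-1 DANA (log2, horizontal axis) for the tested members of each list, 1 point a gene, with vertical scatter only to separate points. Filled dark points have an SE under 1 and open points 1 or more, large red and blue points are called higher and lower, and orange bars are list medians. The called members are 7 mitochondrially encoded genes, 3 ribosomal proteins, E2f2 and the variable segment Trbv12-1.

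Variable segments of the T cell receptor were the list with the lowest median. Of 170 segments 140 were tested, and 101 of these lay below 0 with a median of -3.74. At an unadjusted p under 0.05, 32 were below 0 (22.9%) and none above 0. Other genes with a level of 1.60 to 15.6 RPKM, the quartiles of the segments, had a median of -0.03, with 11.6% below 0 at that p. The segments themselves were not limited to that range, here or in the comparisons below. No segment had an SE under 1, and 1 was called. Trbv12-1, on chromosome 6 at 41113550 to 41114067, differed by -7.13 ± 1.61 (adjusted p = 0.0121). Its mean was 76.3 RPKM in anti-PD-1 DANA and 4.75 in isotype in the authors' deposited tables, with Combo below isotype. Near-identical segments of the alpha locus can share reads, so the split between copies is uncertain.

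The order of the arms' means was counted as known for 81 segments. Combo was the lower in 70 (86.4%), beside 64.3% of other genes in that range of level and 62.5% of all genes with a known order. A share as high stood in the lists of T cell receptor signalling (13 of 14) and of naive and memory genes (9 of 9), so it is not particular to the segments. Of 111 tested alpha and alpha/delta segments the median was -3.86 and Combo was lower in 53 of 62 known orders. Of 23 beta segments the median was -1.68 and Combo was lower in 15 of 16. Among the constant regions, Trbc2 stood at 0.44 ± 0.37 and Trac at -0.30 ± 0.46.

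**Figure D4:**
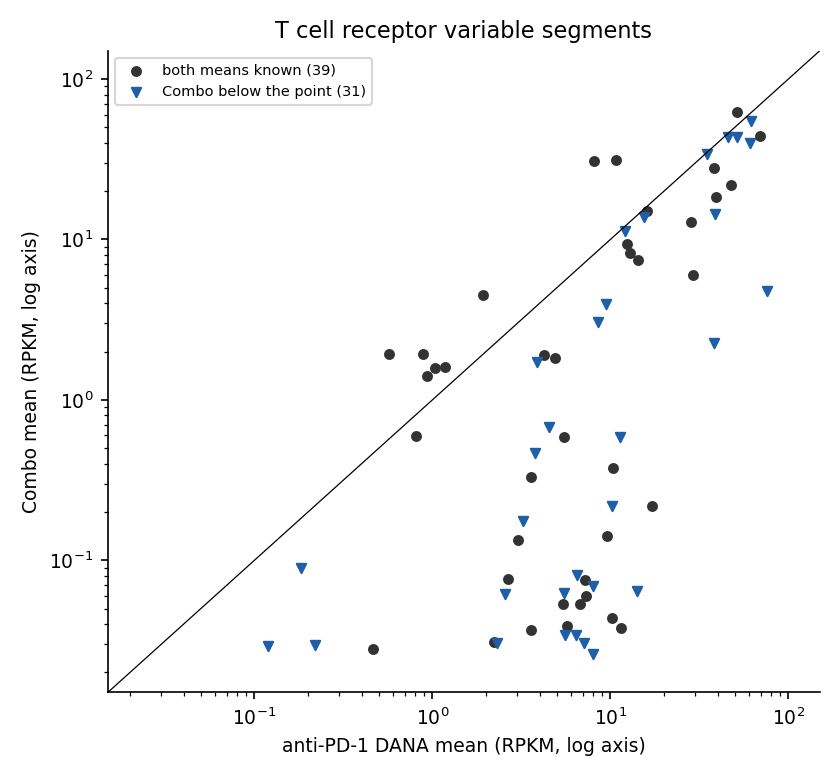
Mean RPKM of variable segments in Combo (vertical) against anti-PD-1 DANA (horizontal), both on log axes, from the authors' deposited tables, with the line of equality. Black points are 39 segments with both means known, 30 of them below the line. Blue triangles are 31 segments whose Combo mean lies below the point drawn, which is the isotype mean. The other 11 segments of known order have an isotype mean of 0 as their bound and are not drawn.

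Reads of all 6 libraries could be recovered for 39 segments, and they show how the arms differed. Of 117 library values per arm, 30 in Combo (25.6%) and 78 in anti-PD-1 DANA (66.7%) reached 1 RPKM. In Combo 5 of the 39 segments (12.8%) reached 1 RPKM in 2 or 3 libraries, 19 did so in 1 library and 15 in none. In anti-PD-1 DANA 23 segments (59.0%) did so in 2 or 3 libraries, 16 in 1 and none in no library. Among 834 other genes in that range of level with 6 libraries recovered, 27.1% reached 1 RPKM in 2 or 3 Combo libraries and 58.3% in 2 or 3 anti-PD-1 DANA libraries. Recovery needs few reads and a known mean, so these 39 segments are not a random draw of the 140.

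Single segments show the same unevenness between Combo libraries that were split from 1 pool. Values are in RPKM, recovered from the authors' deposited means, with libraries ordered by their size. Trbv17 stood at 0.326, 180.6 and 4.78 in Combo and at 6.73, 76.2 and 71.1 in anti-PD-1 DANA. Trbv13-3 stood at 82.9, 0.276 and 0.207 in Combo and at 21.1, 38.5 and 55.5 in anti-PD-1 DANA. Trbv5 stood at 0.442, 54.4 and 0.511 in Combo and at 40.7, 23.0 and 53.3 in anti-PD-1 DANA. For each of these, 1 Combo library held nearly all of that arm's reads, while at least 2 anti-PD-1 DANA libraries held the segment. Trav12n-3 stood at 0, 0 and 93.4 in Combo and at 0, 24.2 and 8.16 in anti-PD-1 DANA, the reverse order of means. Trav14-3 had the smallest p above 0, at 8.48 ± 4.97, with 0, 0 and 145 reads in the Combo libraries.

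Without overlap between the arms, 6 of the 39 segments (15.4%) were lower in Combo and none higher, beside 5.22% and 1.31% of all genes with 6 libraries. Trav3-3 stood at 0, 0.149 and 0.505 RPKM in Combo and at 22.2, 17.8 and 11.2 in anti-PD-1 DANA, as recovered from the authors' deposited means. Trav12n-2 stood at 0.179, 0 and 0 in Combo and at 6.45, 9.63 and 5.86 in anti-PD-1 DANA. The differences were -5.41 ± 3.06 and -6.40 ± 3.31 and neither was called. Reads that rested on 1 library, with 80% or more of the mean, were found for 33 of 43 segments in Combo (76.7%) and 39 of 89 in anti-PD-1 DANA (43.8%), beside 60.0% and 36.7% of genes of that range of level.

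**Figure D5:**
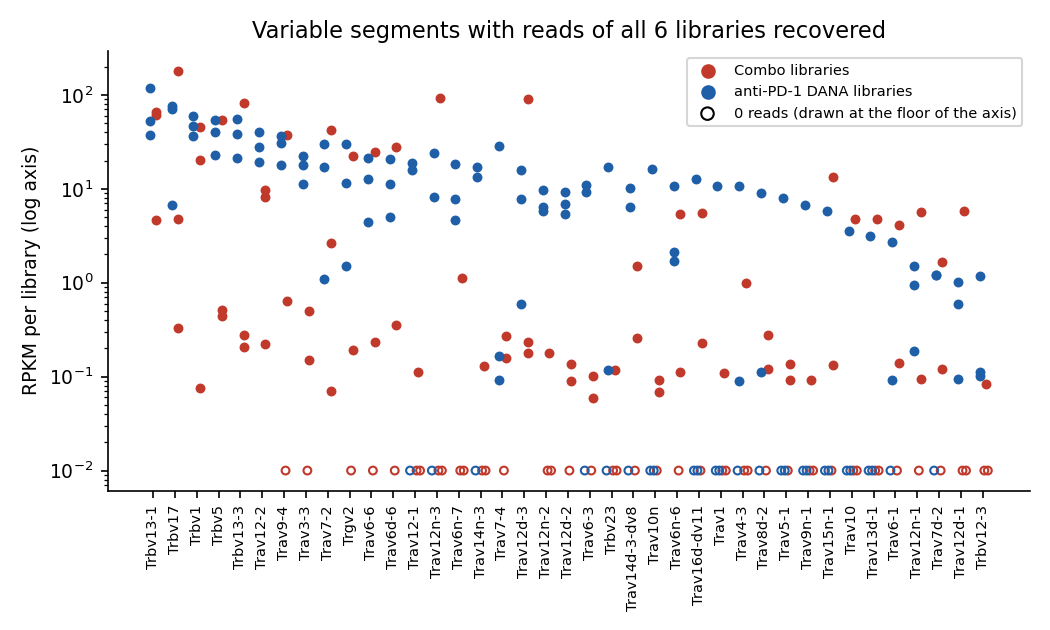
RPKM per library (log axis) of the 39 variable segments with reads of all 6 libraries recovered, ordered by their mean in anti-PD-1 DANA. Red points are the 3 Combo libraries, blue points the 3 anti-PD-1 DANA libraries, and open points libraries with 0 reads, drawn at the floor of the axis. Combo reaches 1 RPKM in 30 of 117 values and anti-PD-1 DANA in 78 of 117.

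Other called genes belong to no list. Col23a1, a membrane collagen, differed by 8.61 ± 1.71 (adjusted p = 0.00209) with a mean of 7.55 RPKM in Combo and 0.0399 in isotype in the authors' deposited tables. Adck1, a mitochondrial kinase-like protein, had means of 15.6 RPKM in Combo and 0.0798 in anti-PD-1 DANA in the authors' deposited tables and a difference of 8.30 ± 1.75. Gatb, which serves mitochondrial glutaminyl-tRNA, had means of 14.9 and 0.166 RPKM in the authors' deposited tables, with 14, 5 and 44 reads in the anti-PD-1 DANA libraries, and differed by 7.18 ± 1.53. Cd83, a membrane protein of activated lymphocytes and dendritic cells on chromosome 13 at 43785107 to 43803130, differed by 7.72 ± 1.67 (adjusted p = 0.00756). In the authors' deposited tables its estimates against isotype (log2 ± SE) were -1.35 ± 1.64 in Combo and -9.07 ± 1.70 in anti-PD-1 DANA. The Combo value lay within its error of 0. Rtel1, a telomere helicase, Pomt1, a mannosyltransferase, Smpd2, a sphingomyelinase, Accs and Hs1bp3 made up the others, at 6.89 to 8.57.

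On the lower side, Reck, a membrane inhibitor of matrix proteases, was scarce in every Combo library with 7, 4 and 6 reads. Its means were 0.0384 RPKM in Combo and 7.87 in anti-PD-1 DANA in the authors' deposited tables, and it differed by -6.98 ± 1.52 (adjusted p = 0.00802). Hsbp1, a binding partner of heat shock factor, differed by -7.38 ± 1.48 (adjusted p = 0.00261) with a mean of 25.04 RPKM in anti-PD-1 DANA in the authors' deposited table. Kdm4b, a histone demethylase, differed by -7.06 ± 1.51, Dse, a dermatan sulfate epimerase, by -8.58 ± 1.78, Dctn5, a dynactin subunit, by -5.47 ± 1.16, and Ccdc86 by -7.12 ± 1.52. Lbr, the lamin B receptor of the inner nuclear membrane on chromosome 1 at 181815335 to 181843046, was measured more closely, at -3.03 ± 0.67 (adjusted p = 0.00953). Spcs2, a signal peptidase subunit, differed by -3.40 ± 0.79 (adjusted p = 0.0173). Of the 31 named called genes 10 overlap another tested gene in the files' coordinates, among them Pomt1, Smpd2, Dctn5, Ccdc86, Lbr and Spcs2, and the labels' protocol names no step that keeps the strand, so reads of such pairs cannot be told apart.

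With the upper bound of the error for every gene, 6 of the 80 calls were left, 4 of them named: Lars2, mt-Atp8, mt-Cytb and mt-Nd5.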

How the data were processed

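RNA of 12 libraries (4 arms of 3) was sequenced after amplification of 0.25 ng with 21 preamplification cycles, per the labels' protocols. The authors deposited 3 tables, each a treatment against isotype. Per the labels' protocols, alignment and quantification were done in CLC Genomics Workbench, and the submitters' processing notes name GRCm38.p5. The program's version, its annotation and its statistical test were not given in the sources used here. Each deposited table holds the larger group mean in RPKM, the fold change both on the log2 scale and as a signed score, and p-values with their adjustments.

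The tables of Combo and of anti-PD-1 DANA were joined on the gene identifier and their log2 values subtracted, which removes the shared isotype. The SE of each comparison was the absolute log2 value over the normal quantile of the authors' p. Where the SEs of the 3 tables lay within 5% of one another, the group means were taken to have equal variances; elsewhere the upper bound was used. A planned count model was not fitted, since the tables hold comparisons and no counts. An arm's mean is known where it is the larger one. Library sizes and whole reads were solved from the steps of low RPKM means in the deposited tables with GENCODE M21 exon lengths, which 99.3% of listed genes matched. This gave reads for 66.8% of Combo means tried and 71.7% of anti-PD-1 DANA means, against 0.398% and 0.494% with lengths off by 1 base. Libraries so recovered are ordered by size and cannot be tied to replicate numbers. The difference on the scale of library size was set by 1131 genes with both means known.

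Members and lists were chosen with earlier results of these data known. Genes named are 12 fixed genes, up to 12 called genes a direction by p and up to 10 with an SE under 1, leaving out predicted loci, called list members, and the members of smallest p in each list and direction. Other genes named were picked after their values were seen. The scripts were tested on simulated data. Python 3.11.15, pandas 2.3.3, scipy 1.17.1, R 4.3.3 and limma 3.58.1 were used.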

Additional observations from a re-analysis of the deposited data

How the results depend on the processing

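The 80 calls became 224 with adjustment over tested genes only, 14 with Bonferroni adjustment, 6 with the upper bound of the error, 267 with equal variances for every gene, 213 with variances solved from the 3 tables, 231 on library size scaling and, chosen after seeing the data, 147 when centred on the median gene with an SE under 1. Calls split 82 higher to 142 lower over tested genes, 8 to 6 with Bonferroni, 31 to 200 on library size scaling, 34 to 76 when centred on the median tested gene (110 calls) and 32 to 115 when centred on the precise genes. Lists with a called member went from 4 to 7, 2, 1 and 9 under tested-only adjustment, Bonferroni, the upper bound and library size scaling, and named called genes from 31 to 12 with Bonferroni and 4 with the upper bound. The median of tested genes went from 0.17 to -0.54 on library size scaling, 0.12 at 5 RPKM or more and 0.012 without genes at 0 reads in both arms. Values of Bcl2, Pdcd1, Fas and Tbx21, none called, changed sign on library size scaling (-0.48, -0.034, -0.013 and -0.39), as did Bcl2 (-0.14) and Tbx21 (-0.050) when centred on the precise genes; each is the shift of the scale alone. On the 2068 genes with read numbers recovered for all 6 libraries, limma (log2 RPKM with a pseudocount of 0.1) and the test on the tables each called 0, with 46 and 174 at an unadjusted p under 0.05, and limma called 0 without any 1 library. None of the 80 called genes was among these 2068, so the limma fit could not check any of the 80 calls. No paired analysis was possible because the tables hold comparisons, with no replicate numbers. Leaving out replicates on the tables and count models were not run for the same reason. The SE fell with level, from a median of 4.17 under 0.1 RPKM to 0.34 above 1000 RPKM.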

Other observations

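The called genes given here lie outside the rule for naming and were picked after their values were seen. Polrmt, the RNA polymerase that transcribes the mitochondrial genome, differed by -6.63 ± 1.67 (adjusted p = 0.0443), and Slc25a10, the dicarboxylate carrier of the inner mitochondrial membrane, by 8.26 ± 1.87 (adjusted p = 0.0122). Lmnb2, which encodes lamin B2, differed by -7.08 ± 1.71 (adjusted p = 0.0271). Rad54l, of homologous recombination, differed by 8.53 ± 1.88 and Chaf1a, a histone chaperone of replication, by 7.69 ± 1.74. Gins4, a replication helicase subunit, differed by -6.52 ± 1.64 and Ung, which removes uracil from DNA, by -6.97 ± 1.63. Emc1 and Fkbp2, which serve protein folding in the endoplasmic reticulum, differed by -6.82 ± 1.70 and -6.69 ± 1.61.

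Some genes that were not called had Combo libraries all below the anti-PD-1 DANA libraries, or all above. Values are in RPKM, recovered from the authors' deposited means, with libraries ordered by size. Mrpl55, a protein of the mitochondrial ribosome, stood at 0.119, 0.122 and 0.0458 in Combo and at 10.8, 13.2 and 7.53 in anti-PD-1 DANA, a difference of -6.08 ± 1.82 (adjusted p = 0.161). Plekhf2, an endosomal protein, stood at 0.0134, 0.0206 and 0.0232 in Combo and at 6.37, 7.62 and 4.78 in anti-PD-1 DANA, a difference of -7.53 ± 2.04 (adjusted p = 0.0765). Kcna3, the potassium channel of T cells, stood at 0.0641, 0.329 and 0.0247 in Combo and at 5.16, 9.62 and 2.49 in anti-PD-1 DANA. In the opposite direction, Foxo4, a forkhead transcription factor, stood at 4.26, 5.52 and 4.19 in Combo and at 0.604, 3.60 and 0.00898 in anti-PD-1 DANA, with a difference of 2.46 ± 1.87.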
